A study of Mus musculus with 10 samples.

Results

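Genes of the mononuclear phagocyte programme, 10 in number, were followed in the skin of Tsk2 mice at 2 ages. They were the growth factor gene Csf1, its receptor gene Csf1r, and the macrophage marker genes Cd14, Itgam, Cd68, Lyz1, Lyz2, Cd163, Mrc1 and Msr1. A gene was represented by every array probe that carried its symbol in the platform annotation. Of the 10 genes, 9 had at least 1 probe, among 19532 gene symbols with a probe, and no probe carried the symbol Cd68. All 9 were measured well enough to be tested, among 13501 genes in all.

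Tsk2 is a tight-skin mouse with a mutation in Col3a1, studied as a model of scleroderma. The design text writes the genotype as Tsk2/+, and the sample titles call the mice transgenic. The groups were skin of Tsk2 mice aged 1 month and skin of Tsk2 mice aged 4 months, with 4 skin samples and 5 arrays each. No treatment, strain background or sex was given, and every sample carried the Tsk2 genotype, so age was the only contrast and wild-type skin was not analysed here. The labels do not say whether the samples came from separate animals, and the p-values therefore reflect only how much these skin samples vary, which may be technical in part. Each skin RNA was labelled with Cy3 and hybridised against a Cy5-labelled reference RNA named UMR. A value is the log2 ratio of skin over this reference, and 0 means an equal signal in both dyes. Because the reference holds its own amount of each transcript, ratios were compared between samples and not between genes.

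Macrophages of the skin depend on CSF1R, a receptor tyrosine kinase bound by 2 ligands, CSF1 and interleukin 34. CSF1 is made by stromal and many other cells, whereas interleukin 34 is made in skin mainly by keratinocytes and maintains Langerhans cells. CD14 is the co-receptor that hands lipopolysaccharide to TLR4, and ITGAM (CD11b) pairs with ITGB2 to form complement receptor 3. LYZ2 is the lysozyme of mouse myeloid cells and LYZ1 its close relative, best known from Paneth cells. MRC1 (CD206), CD163 and MSR1 are endocytic receptors for glycoproteins, haemoglobin complexes and modified lipoproteins, and CD68 is a lysosomal membrane glycoprotein of phagocytes.

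The numerator of the deposited ratios was not stated, and the direction used here is likely rather than given. In the direction used, the median of the epidermis list was between 3.89 and 5.62 on the 10 arrays. The skeletal muscle list had array medians of 4.05 to 6.58. The median of the cell division list was below 0 on all 10 arrays, at -3.42 to -0.31. The B cell list, meant to lie on the reference side, had medians of -0.05 to 0.44 and decided nothing. The fibroblast list had array medians of -0.31 to 1.95, above 0 on 7 arrays. With the other dye as numerator every age difference would change sign and keep its size and test. On the first principal component of all genes, 48.2% of the variance, the 1-month samples were at -52.6 to -22.31. There 4-month samples 1, 2 and 3 were at 44.16 to 55.65, and 4-month sample 4 lay between the ages at 7.96. On the second component, 17.2% of the variance, 1-month sample 2 and 4-month sample 3 stood apart from the other samples at -57.39 and -26.79.

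None of the 9 genes passed the age test, a limma fit with Benjamini-Hochberg adjustment over all 13501 genes and a threshold of 0.05. Among all genes 7.25% passed it, 4.19% higher and 3.06% lower at 4 months. Before adjustment, 7 of the 9 had p under 0.05 in the higher direction, against 13.2% of all genes. The fitted difference was above 0 for 8 of the 9 genes, against 52.3% of all genes, and the median difference was 1.05, against 0.03 over all genes. The 4-month samples lay wholly above the 1-month samples for 5 of the 9, namely Cd14, Itgam, Lyz1, Lyz2 and Msr1, against 10.9% of all genes. For Msr1 this held in the mean of its probes and not on each probe alone. The 9 genes share the same 8 samples and are not independent of each other. Without the 2 samples that stood apart on the second component, in a fit without a block added after seeing the data, the differences were 0.58 for Lyz1, 0.62 for Lyz2, 0.48 for Csf1r, 0.79 for Msr1, 1.09 for Itgam and 1.10 for Cd14. Csf1 then passed, at 1.28 with an adjusted p of 0.0423. In whole skin, a change in the number of cells of a type and a change in RNA per cell cannot be told apart.

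**Figure D1:**
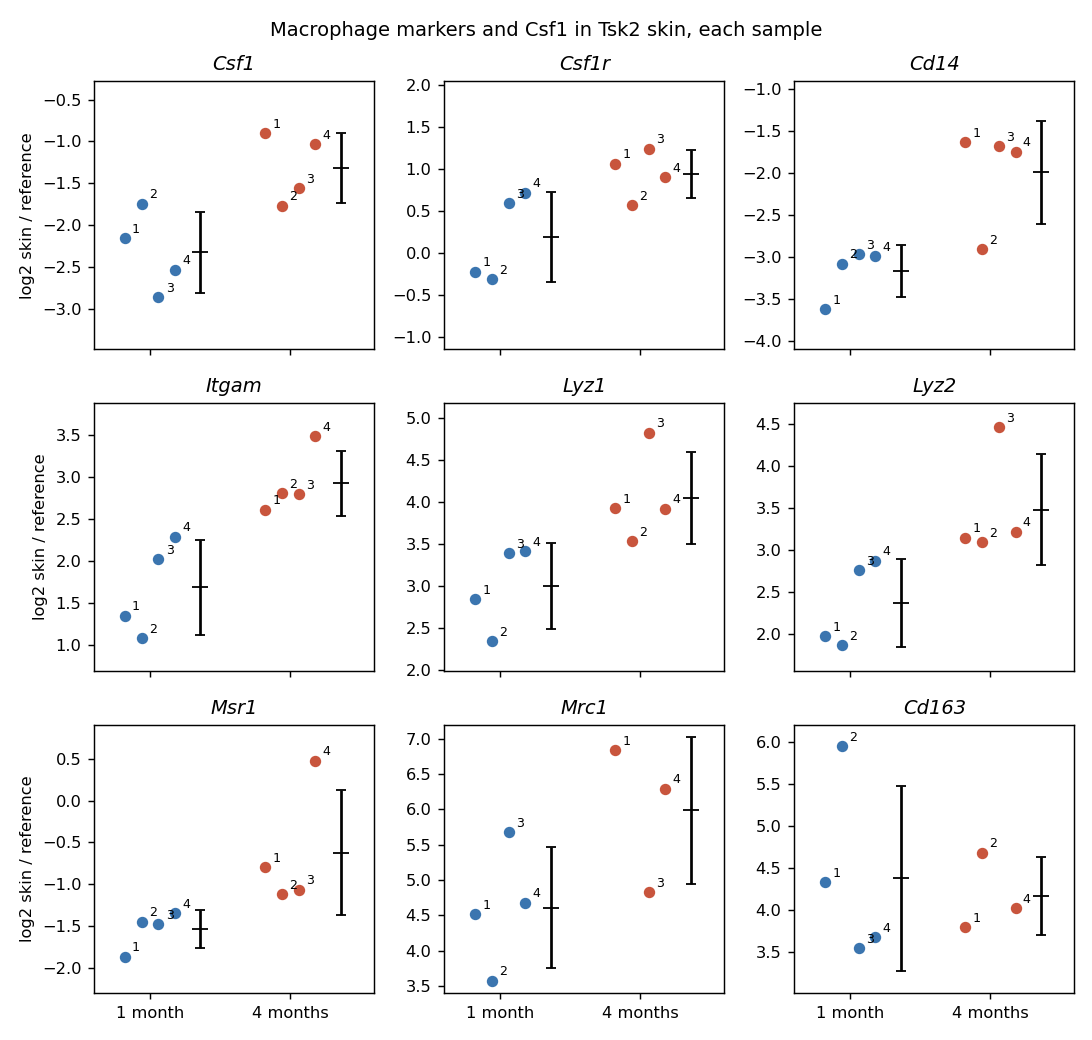
Log2 ratio of skin over reference (vertical axis, 1 panel per gene) in each Tsk2 skin sample at 1 month (blue) and 4 months (red), with the sample number beside each point and bars for the mean ± SD. Panels span the same number of log2 units except that of Mrc1, which spans more. The ages are apart for Cd14, Itgam, Lyz1, Lyz2 and Msr1 and overlap for the other 4 genes.

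Csf1 stood below the reference in all 8 skin samples. At 1 month its log2 ratio was -2.16, -1.74, -2.86 and -2.53 in samples 1 to 4. At 4 months it was -0.90, -1.77, -1.56 and -1.03. The ages overlapped only in that 1-month sample 2, at -1.74, was slightly above 4-month sample 2, at -1.77. The mean was -2.32 ± 0.48 (SD, n = 4) at 1 month and -1.31 ± 0.41 (SD, n = 4) at 4 months. The difference was 1.05 ± 0.32 (SE), a 2.08-fold ratio with a 95% interval of 0.34 to 1.77 on the log2 scale. The adjusted p was 0.0798 in limma, and a 2-sided exact permutation test over the samples gave p = 0.0571. That permutation test exchanges samples freely and ignores the ID numbers of the titles, which limma takes as a random block. In the 2 samples run on 2 arrays, the arrays differed by 0.19 and 0.01 for Csf1, against a median gap of 0.34 and 0.32 over all probes.

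Csf1r lay near the reference at 1 month, at -0.22, -0.31, 0.59 and 0.72, and above it at 4 months, at 1.07, 0.57, 1.25 and 0.90. The 1-month samples formed a low and a high pair, and the high pair overlapped 4-month sample 2. The means were 0.19 ± 0.54 and 0.95 ± 0.29 (SD, n = 4 each), and the difference of 0.76 ± 0.31 (SE; 95% interval 0.05 to 1.46) had an adjusted p of 0.176 in limma. The 2 probes that could be tested gave 0.89 and 0.63. A further Csf1r probe had a value in only 2 of the 4 samples at 4 months, below the minimum of 3, and was not used. It was listed at 0 on 4 arrays, and its other 6 values were each shared exactly by 100 or more probes of the array.

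Il34, which encodes the other CSF1R ligand, stood above the reference in every sample. Its log2 ratio was 2.29, 3.17, 1.34 and 1.20 at 1 month and 3.26, 3.41, 3.81 and 2.80 at 4 months. The difference was 1.28 ± 0.45 (SE), with an adjusted p of 0.119 in limma, and 1-month sample 2 overlapped the 4-month samples. Without that sample Il34 passed the test, at 1.56 with an adjusted p of 0.0486, and with quantile normalization the difference was 0.82 (adjusted p = 0.339). The changes with age of ligands and receptor were then set against each other within each sample. The change in Csf1 was 0.31 below that in Il34 (-0.31) and 0.26 above that in Csf1r, and neither difference was larger than its spread (exact permutation p = 0.514 and 0.657, adjusted 0.657 over 3 pairs). The smallest p that 4 against 4 samples allow is 0.0286.

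**Figure D2:**
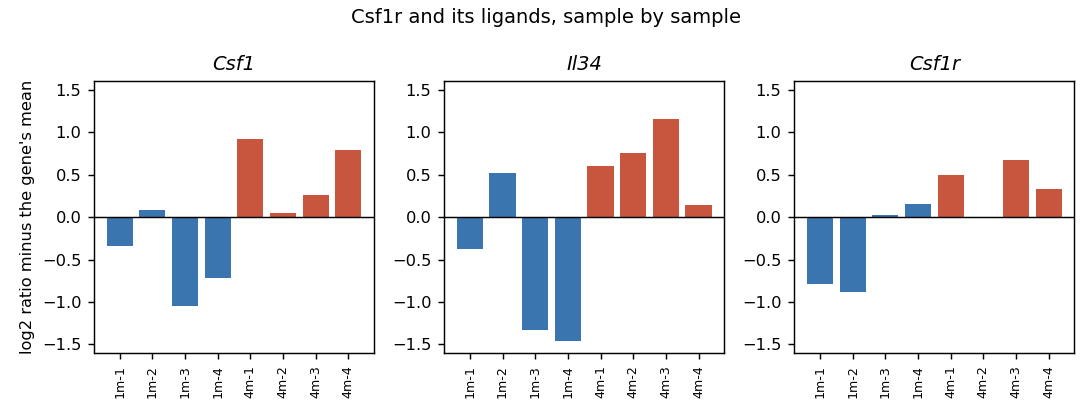
Csf1, Il34 and Csf1r in each sample, as the log2 ratio minus the gene's mean over the 8 samples (vertical axis), with blue bars for 1 month (1m) and red bars for 4 months (4m). At 1 month, Csf1 and Il34 are higher in samples 1 and 2 than in samples 3 and 4, and Csf1r is lower.

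Cd14 stood below the reference throughout, at -3.63, -3.08, -2.97 and -2.997 at 1 month and -1.63, -2.91, -1.68 and -1.75 at 4 months. Samples 1, 3 and 4 of the 4-month group lay close together, and 4-month sample 2 was just above the highest 1-month sample. The means were -3.17 ± 0.31 and -1.99 ± 0.61 (SD, n = 4 each). The difference was 1.22 ± 0.38 (SE), 2.32-fold with a 95% interval of 0.37 to 2.07, and the adjusted p was 0.0858 in limma. The exact permutation p, which ignores the ID numbers, was 0.0286, the smallest possible when samples are exchanged freely. Without 4-month sample 2 the difference was 1.48 and the adjusted p 0.0273. Both arrays of that sample read low, at -2.83 and -2.99.

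Tlr4, the signalling receptor that CD14 serves, was at -1.72 on average at 1 month and -0.43 at 4 months, a difference of 1.34 ± 0.45 (SE) with an adjusted p of 0.103. Ly96, whose product MD-2 completes that receptor, differed by 0.21 ± 0.38 (adjusted p = 0.793). Of 12 genes of lipopolysaccharide sensing that were tested, Cd14 included, none passed the limma test, and the median difference was 0.46. In either direction, 4 had an unadjusted p under 0.05, against 3279 of all 13501 genes.

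Itgam stood above the reference in all 8 samples, and its promoter, the 250 bases before the RefSeq transcription start, is shown because it holds the hexamer core bound by PU.1. PU.1, the product of Spi1, is the transcription factor that sets up the myeloid lineage. The search used GAGGAA and its reverse complement TTCCTC, in capitals. Itgam holds 2 matches, 84 and 15 bases before the start, and Mrc1 holds 3. Of the 7 genes of the set whose RefSeq promoters (GRCm38.p6) were examined, 3 hold a match, as do 23.3% of 32851 promoters. The promoters of Cd14, Csf1r and Msr1 were not examined. The AP-1 sequence TGANTCA was found in 1 of the 7, Cd68, and in 6.75% of promoters.
Itgam promoter, chr7:128062390-128062639, plus strand: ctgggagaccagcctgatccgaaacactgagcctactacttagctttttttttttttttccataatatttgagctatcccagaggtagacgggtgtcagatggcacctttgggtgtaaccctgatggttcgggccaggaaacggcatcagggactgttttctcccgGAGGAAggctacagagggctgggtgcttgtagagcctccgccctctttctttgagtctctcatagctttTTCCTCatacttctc
Mrc1 promoter, chr2:14229164-14229413, plus strand: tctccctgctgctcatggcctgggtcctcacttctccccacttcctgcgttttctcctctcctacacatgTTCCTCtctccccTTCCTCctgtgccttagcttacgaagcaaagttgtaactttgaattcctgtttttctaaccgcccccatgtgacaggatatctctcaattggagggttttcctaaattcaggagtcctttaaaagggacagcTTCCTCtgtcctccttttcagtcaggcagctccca

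Itgam gave log2 ratios of 1.35, 1.08, 2.02 and 2.29 at 1 month and of 2.61, 2.81, 2.80 and 3.49 at 4 months. Every 4-month sample was above every 1-month sample, and 4-month sample 4 was the highest. The means were 1.68 ± 0.56 and 2.93 ± 0.39 (SD, n = 4 each). The difference of 1.26 ± 0.33 (SE), 2.39-fold with a 95% interval of 0.51 to 2.00, had an adjusted p of 0.0512 in limma and an exact permutation p of 0.0286. It was the nearest of the 9 genes to the threshold, and without 1-month sample 4 it passed at 1.44 with an adjusted p of 0.0355. With quantile normalization between samples it was 0.90, and with exact zeros kept as values 0.83 (limma adjusted p = 0.163 and 0.317). The Itgam difference rests on 1 probe, which was listed at 0 on 1 array of 4-month sample 2. A further Itgam probe had a value in only 1 of the 4 samples at 1 month. That further probe was listed at 0 on 5 arrays and held values shared by 100 or more probes on the other 5.

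Itgb2, the beta chain that ITGAM needs to reach the cell surface, rose with age. It was at -1.65, -1.49, -1.27 and -1.10 at 1 month and at -0.32, -0.75, -0.48 and 0.04 at 4 months, with no overlap. The difference was 1.03 ± 0.25 (SE; limma adjusted p = 0.0402). It no longer passed when any one of 1-month samples 1, 2 and 3 or of 4-month samples 1 and 3 was left out, with adjusted p of 0.0509 to 0.143 and differences of 1.00 to 1.06. It also missed the threshold with the first array of each sample only (adjusted p = 0.0966) and with the ID suffix as a term (0.0613). Itgb2 alone passed among 9 tested genes of leukocyte integrins and their partners, a list that includes Itgam and the partners Icam1, Icam2 and Fermt3. Among all genes 4.19% passed as higher. Itgax (CD11c) differed by 0.45 ± 0.33 and Itgal (CD11a) by 0.16 ± 0.38.

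Lyz1 and Lyz2 followed each other from sample to sample. Lyz1 was at 2.84, 2.35, 3.40 and 3.42 at 1 month and at 3.93, 3.54, 4.83 and 3.93 at 4 months. Lyz2 was at 1.97, 1.86, 2.76 and 2.87 at 1 month and at 3.14, 3.09, 4.47 and 3.22 at 4 months. For both, the ages did not overlap and 4-month sample 3 was the highest. The differences were 1.04 ± 0.40 (SE; adjusted p = 0.145) for Lyz1 and 1.07 ± 0.42 (SE; adjusted p = 0.158) for Lyz2 in limma, each with an exact permutation p of 0.0286. Without 4-month sample 3 they were 0.80 and 0.79, and with quantile normalization between samples they were 0.51 and 0.62 (adjusted p = 0.402 and 0.364). The 2 Lyz2 probes gave 1.02 and 1.14.

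The log2 ratio of Lyz1 minus that of Lyz2 averaged 0.64 ± 0.17 in the 1-month group and 0.58 ± 0.20 in the 4-month group (SD, n = 4 each), and the difference between the ages was -0.06 (exact permutation p = 0.657, adjusted 0.657). Lyz1 and Lyz2 are near-identical neighbours, with 0 genes between them in the RefSeq table, and probe sequences were not used here. Signal of one transcript on the other's probe was not tested, so their values may not be separate measurements. Their promoters, the 250 bases before each start, are shown because they are alike as well. An alignment of both had 200 identical columns of 252 (79.4%) with 4 gap columns. Capitals mark the bases that differ or have no partner, and each sequence is printed in the direction of its gene.
Lyz1 promoter, chr10:117292869-117293118, minus strand: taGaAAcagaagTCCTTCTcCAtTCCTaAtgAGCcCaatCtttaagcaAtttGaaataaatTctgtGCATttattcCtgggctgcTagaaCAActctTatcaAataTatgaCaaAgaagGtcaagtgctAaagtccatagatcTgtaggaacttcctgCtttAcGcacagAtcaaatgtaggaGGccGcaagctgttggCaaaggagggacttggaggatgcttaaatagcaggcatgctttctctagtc
Lyz2 promoter, chr10:117282273-117282522, minus strand: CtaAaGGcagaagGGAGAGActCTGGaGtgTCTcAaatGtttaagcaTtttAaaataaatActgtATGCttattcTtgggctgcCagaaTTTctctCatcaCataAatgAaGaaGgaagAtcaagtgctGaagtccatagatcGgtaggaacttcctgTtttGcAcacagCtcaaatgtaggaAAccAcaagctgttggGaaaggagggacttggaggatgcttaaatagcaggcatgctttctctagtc

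Msr1, the class A scavenger receptor gene, stood below the reference in every 1-month sample, at -1.86, -1.44, -1.48 and -1.34. At 4 months it was at -0.79, -1.12, -1.06 and 0.47. In the mean of its probes the ages did not overlap, but 4-month sample 4 lay far above the other samples of its age. The difference was 0.97 ± 0.38 (SE; limma adjusted p = 0.155; exact permutation p = 0.0286), and without 4-month sample 4 it was 0.36. In 4-month sample 2, 1 of the 3 probes was not measured and was filled in from the probe and sample fit. On the probe with a value on every array, that sample was at -1.95, below every 1-month sample (-1.62 to -0.99). Its value on the remaining probe, -0.05, came from 1 array and was shared by 2492 probes of it. The ages overlapped on both of these measured probes. The 3 probes gave differences of 0.57, 0.98 and 1.52, and none passed.

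Mrc1 was strongly above the reference, at 4.52, 3.58, 5.68 and 4.68 at 1 month and at 6.84, 4.83 and 6.29 in 4-month samples 1, 3 and 4. Its probe was listed at 0 on both arrays of 4-month sample 2. The 1-month sample 3 overlapped the 4-month range. The difference was 1.38 ± 0.62 (SE), with a 95% interval of -0.03 to 2.78 that includes 0 and an adjusted p of 0.216 in limma. The repeat arrays of 1-month sample 1 differed by 1.06.

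Cd163 did not follow the other genes in value. It was at 4.33, 5.95, 3.54 and 3.68 at 1 month and at 3.79, 4.68 and 4.02 in 4-month samples 1, 2 and 4, and 4-month sample 3 was listed at 0. The difference was -0.21 ± 0.60 (SE; 95% interval -1.56 to 1.15), with an adjusted p of 0.876 in limma. Its single highest value was 1-month sample 2, without which the difference was 0.25. The repeat arrays differed by 1.37 and 0.74, in both samples the widest gap of any probe of the set. The interval still holds 1.05, the median difference of the set.

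**Figure D3:**
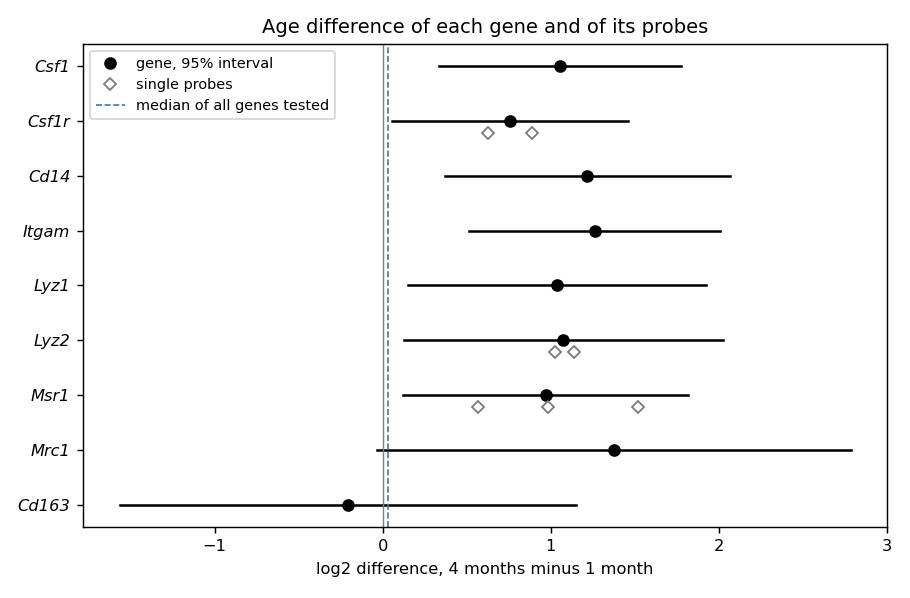
Difference in log2 ratio between 4 months and 1 month (horizontal axis) for each gene, with its 95% interval from limma (lines), the values of single probes where several were tested (open diamonds) and the median of all genes tested, 0.03 (dashed line). Intervals of 7 genes lie above 0, those of Mrc1 and Cd163 include it, and no gene passed after adjustment over all genes.

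The 1-month samples carry 2 ID numbers in their titles, samples 1 and 2 under the first and samples 3 and 4 under the second. Both samples of the first number lay below both of the second for 6 of the 9 genes, against 24.8% of the genes measured in all 1-month samples. These 6 were Cd14, Itgam, Csf1r, Lyz1, Lyz2 and Mrc1. The means per number were 1.21 and 2.16 for Itgam, -0.27 and 0.66 for Csf1r, and 1.91 and 2.81 for Lyz2. The other way ran 2 of the 9, Csf1 and Cd163, against 23.8% of the genes measured in all 1-month samples. The means were -1.95 and -2.70 for Csf1. Il34 also ran the other way, and Msr1 overlapped. At 1 month, then, the samples with the higher Csf1r, Itgam and lysozyme ratios had the lower ratios of both CSF1R ligands. What an ID number stands for is not stated, and with 2 samples per number no test was made.

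Around these genes, other macrophage genes were mostly above 0 in difference. Of 30 tested, 27 had a positive difference, against 52.3% of all genes, and the median was 0.72. In the limma test 1 passed, as higher, against 4.19% of all genes. That gene was Cybb, the catalytic subunit of the phagocyte NADPH oxidase, at -0.28, -0.23, 0.33 and 0.66 at 1 month and at 1.43, 2.03, 1.63 and 1.35 at 4 months (difference 1.46 ± 0.29, SE; adjusted p = 0.0205). Without 1-month sample 1 its adjusted p was 0.0936 at a difference of 1.39. C1qb, a chain of complement C1q made by tissue macrophages, had the largest difference of the list, 2.04 ± 0.53, and an adjusted p of 0.0551 with 3 samples at 4 months. Its partner chains C1qa and C1qc differed by 0.91 ± 0.59 and 0.37 ± 0.49 (SE; limma adjusted p = 0.392 and 0.706). Adgre1, an adhesion receptor gene widely used to mark mouse macrophages, differed by 0.96 ± 0.48 (adjusted p = 0.263), and Trem2 by 0.93 ± 0.40. Gpnmb was at -0.53 on average at 1 month and at -2.07 at 4 months (difference -1.58, adjusted p = 0.119), and Mertk differed by -0.64 ± 0.38.

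Among all genes 4.19% passed as higher and 3.06% as lower, and of 15 lysosomal genes 2 rose and none fell. They were Psap, the precursor of the saposins (1.33 ± 0.28, SE; adjusted p = 0.0264), and Hexa, a chain of beta-hexosaminidase (0.96 ± 0.25, SE; adjusted p = 0.0493). Psap no longer passed when 1-month sample 1, 1-month sample 2, 4-month sample 1 or 4-month sample 2 was left out, with adjusted p of 0.0594 to 0.0821. Leaving out any of samples 1, 2 and 3 of either age did the same for Hexa, with adjusted p of 0.0553 to 0.212. Hexa also missed the threshold with the first array of each sample only (0.0672), with zeros kept (0.0546), with 1 probe per gene (0.0579) and with values required in only 2 samples per age (0.0525). The list median was 0.28, and 4 of the 15 had an unadjusted p under 0.05 in limma, against 3279 of all 13501 genes. Among 14 scavenger receptor genes, Msr1, Mrc1 and Cd163 included, none passed, and the median was also 0.28. Of these 14, 2 had an unadjusted p under 0.05, against 3279 of all 13501 genes in either direction. Marco differed by -0.23 ± 0.34 and Cd36 by -0.02 ± 0.63.

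Genes induced by interleukin 4 in mouse macrophages and genes induced by lipopolysaccharide or interferon gamma were listed apart. Of 14 of the first kind, Mrc1 included, all had a positive difference, against 52.3% of all genes. The list median was 0.31. Unadjusted p in limma was under 0.05 for 2 of the 14, against 3279 of all 13501 genes in either direction. After adjustment 2 rose, against 4.19% of all genes. Tgm2, a transglutaminase, had log2 ratios of 0.08, -0.32, -0.08 and 0.34 at 1 month and of 2.34, 1.52, 1.57 and 1.94 at 4 months (difference 1.87 ± 0.28, SE; adjusted p = 0.00879). It passed whichever single sample was left out, and missed the threshold with means per ID number (adjusted p = 0.0928) and with the mean of a pan-leukocyte list as a covariate (0.079). Ccl24, which encodes the eosinophil attractant eotaxin 2, differed by 1.49 ± 0.36 (SE; adjusted p = 0.0402), but leaving out 1-month sample 1, 1-month sample 2 or any of 4-month samples 1, 2 and 3 brought its adjusted p to 0.0558 to 0.185. Ccl24 also missed the threshold with the first array of each sample only (0.0526), with zeros kept (0.0794) and with 1 probe per gene (0.0588). Retnla and Arg1, commonly used marks of the interleukin 4 response, differed by 0.15 ± 0.87 and 0.13 ± 0.86. Tgm2 and Ccl24 are also expressed by cells other than macrophages.

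Of 16 genes of the second kind, 15 had a positive difference, against 52.3% of all genes, none passed, and the median was 0.38. An unadjusted p under 0.05 was found for 3 of them, against 3279 of all 13501 genes in either direction. Ccl2, the monocyte attractant, was at -3.60 on average at 1 month and at -1.99 at 4 months, with no overlap (difference 1.67 ± 0.44, SE; adjusted p = 0.0514). Nos2, Tnf and Il1b differed by 0.03 ± 0.21, 0.11 ± 0.29 and 0.18 ± 0.59. Among 13 transcription factors of macrophages, Nr4a1, an immediate early nuclear receptor that Ly6C-low monocytes need, rose by 2.69 ± 0.43 (SE; adjusted p = 0.011). Without 1-month sample 1 the Nr4a1 difference was 2.56 and its adjusted p 0.0681. It alone passed of the 13, against 4.19% of all genes that passed as higher. The list median was 0.18, and Mitf was lower at 4 months (-0.83 ± 0.30, SE; limma adjusted p = 0.119). Nr4a1 was also the 1 gene to pass of 7 monocyte genes, of which 5 had a positive difference, with a median of 0.36. In that list Plac8 differed by 1.12 ± 0.71, Cd44 by -0.72 ± 0.48 and Vcan by -0.89 ± 0.40. Spi1, which encodes PU.1, differed by 0.04 ± 0.43 (adjusted p = 0.968). Of the 15 genes of the CSF1R axis that were tested, Csf1, Il34 and Csf1r included, none passed, and the median was 0.54. Unadjusted p in limma was under 0.05 for 7 in either direction, against 3279 of all 13501 genes. Among these 7, Sos1 was lower at 4 months (-0.60 ± 0.22, SE; limma adjusted p = 0.129). Inpp5d, the myeloid phosphatase SHIP1, came nearest to passing, at 1.02 ± 0.29 (adjusted p = 0.0678).

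**Figure D4:**
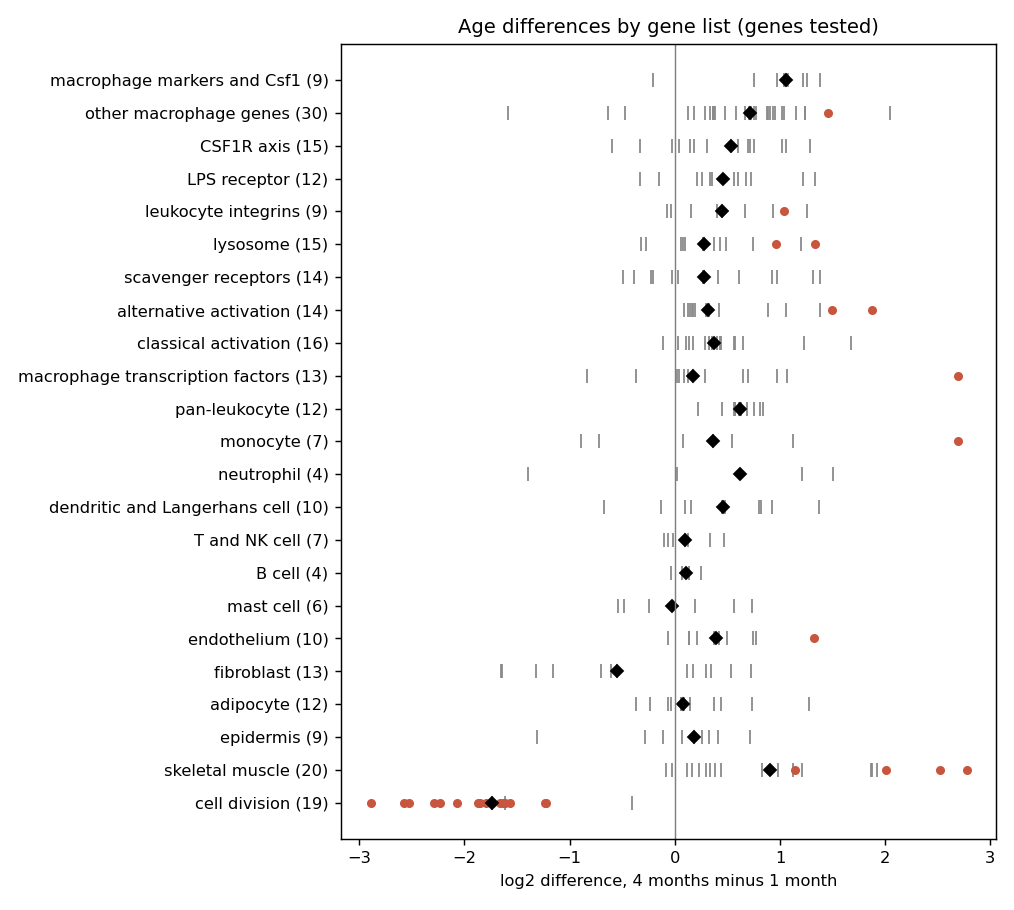
Difference in log2 ratio between 4 months and 1 month (horizontal axis) of every gene tested in each list, with the number tested in brackets, grey ticks for genes that did not pass the limma test, red dots for those that passed and black diamonds for list medians. The macrophage markers and Csf1 have a median of 1.05 and no red dot, and 16 of 19 cell division genes are red and below 0.

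Lists of other cell types were read beside these differences. Among all genes 52.3% had a positive difference, 4.19% passed as higher and 3.06% as lower. All 12 genes of most leukocytes had a positive difference, none passed, and their mean ratio was -1.55 to -1.02 in the 1-month samples and -0.99 to -0.39 in the 4-month samples. The median was 0.62 for that list, 0.46 for 10 genes of dendritic and Langerhans cells, 0.10 for 7 T and natural killer cell genes, 0.11 for 4 B cell genes and -0.02 for 6 mast cell genes. Of 10 endothelial genes, 9 had a positive difference, the median was 0.40, and the list means, 0.80 to 1.23 at 1 month and 1.27 to 1.64 at 4 months, did not overlap. Flt1, a VEGF receptor gene, rose by 1.33 ± 0.30 (SE; adjusted p = 0.0331). It no longer passed without 1-month sample 1 or without 4-month sample 1, 2 or 3 (adjusted p 0.0532 to 0.159), with 1 probe per gene (0.103) or with the ID suffix as a term (0.0613), and with zeros kept its difference was 0.81. Only 4 of 13 neutrophil genes with a probe were measured well enough, with differences from -1.39 (S100a8) to 1.502 (Lcn2), although neutrophils also carry ITGAM. Skeletal muscle genes had a median of 0.90, and 4 of 20 rose, with list means of 3.92 to 5.31 at 1 month and 4.91 to 6.49 at 4 months. Fibroblast genes had a median of -0.55 and none of 13 passed, and 16 of 19 cell division genes fell.

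With the mean of the pan-leukocyte list as a covariate, the differences were 0.72 for Csf1, 0.37 for Csf1r, 0.29 for Cd14, 0.54 for Lyz1, 0.34 for Lyz2 and 0.73 for Msr1. Itgam had a difference of 1.32 and Mrc1 reached 3.03, Cd163 was at -0.99, and none of the 9 passed. With the mean of the skeletal muscle list as a covariate, the differences ranged from -1.43 for Cd163 to 2.60 for Mrc1, which then passed with an adjusted p of 0.045. Both covariates differ between the ages, and 0.17% and 0.726% of all genes passed in these fits. Of the genes named above that rose, Itgb2, Cybb, Psap, Hexa, Tgm2, Ccl24, Nr4a1 and Flt1 all missed the threshold with the pan-leukocyte covariate (adjusted p 0.0625 to 0.417). With the muscle covariate Psap and Tgm2 passed (0.039 for each) and the others did not (0.0728 to 0.241). Ccl24 was at 0.63 and 0.93 in the respective fits. With means per ID number, where 0 of all genes passed, these genes had adjusted p of 0.0797 to 0.152. Beyond these fits, the part of other cells in the differences was not tested.

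The genes nearest to 3 of the set in profile were found by the root mean square difference over the 8 samples, after each gene's own mean was subtracted, among 12397 genes measured in all samples. They are a description, with no test. For Csf1r they were Ncf1 (0.134), a cytosolic subunit of the phagocyte oxidase, Bcl7b (0.173) and Tnfaip8l2 (0.182). For Csf1 they were Prxl2a (0.159), Trex1 (0.183), a DNA exonuclease, and Ergic1 (0.188). For Lyz2 the nearest was Lyz1 (0.166), followed at a distance by Pilra (0.270), a paired receptor of myeloid cells, and H2-DMa (0.305), which loads peptides on MHC class II.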

How the data were processed

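Skin RNA came from a fibrous-tissue extraction kit, and 200 ng per sample were labelled with Agilent Quick-Amp chemistry, per the labels' protocols. The values are log ratios of the 2 dyes deposited by the authors, read here as log2 from their range. How the authors scanned, background-corrected and normalized the arrays is not stated in the labels. The deposited sign was turned so that positive values mean skin above reference. Of 41174 probes, 32664 had 1 gene symbol in the platform annotation and were used. An exact 0, 26.06% to 47.37% of an array, was read as not measured. Many measured values were shared exactly by 100 or more probes of their array (27.19% to 37.07%), and reading these as not measured was an alternative.

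Repeat arrays of a sample, 1 sample per age, were averaged. Probes of a gene were averaged (single missing values were filled by a fit of probe and sample terms), and probes and genes with values in fewer than 3 samples of an age were left out. Ages were compared with limma 3.58.1 (lmFit, eBayes) in R 4.3.3, with the ID number of the title as a random block (statmod 1.5.0, duplicateCorrelation, consensus correlation 0.31) and Benjamini-Hochberg adjustment over all genes at 0.05. Single values were also tested by 2-sided exact permutation over samples. This test did not use the ID number, so samples that share a number were exchanged as if independent. The number of arrays limits the precision. Named genes were the 10 of the set, the 3 nearest profiles of Csf1r, Csf1 and Lyz2, and, of the lists, genes past the test and some of the up to 4 further genes with the greatest difference. Skeletal muscle and cell division genes past the test are given as counts only. Ly96, Itgal, Marco, Cd36, Adgre1, Trem2, Mertk, Retnla, Arg1, Nos2, Tnf, Il1b and Spi1 were named in addition for their roles. Icam1, Icam2, Fermt3, C1qa, C1qc and Sos1 were named to describe their lists. The set and the lists were chosen with earlier results of these data known. Promoters are from RefSeq (GRCm38.p6), and the array annotation names no build.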

Additional observations from a re-analysis of the deposited data

Results flagged for a closer look

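Of 16 groups of 4 samples examined for a sample far from the rest, 2 held one, as its gap to the nearest sample exceeded Dixon's 95% limit. Chance flags about 1 in 20 groups. Cd14 in 4-month sample 2 was at -2.91, below the other 4-month samples at -1.75 to -1.63, and both of its arrays read low. Lyz2 in 4-month sample 3 was at 4.47, above the other 4-month samples at 3.09 to 3.22, and Lyz1 was also highest in that sample, at 4.83.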

How the results depend on the processing

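Of 13501 genes, 979 passed in the fit reported. The count was 2022 without the block, 0 with means per ID number (2530 at unadjusted p under 0.05), 98 with the muscle covariate, 23 with the pan-leukocyte covariate, 581 with the ID suffix as a term, and 157 to 2172 when 1 sample was left out. The share of calls that were higher, 57.8%, was 44.9% and 82.6% with the 2 covariates. Of the 9 genes, 3 passed without the block: Cd14 (1.18, adjusted p = 0.0356), Itgam (1.24, 0.029) and Csf1 (1.01, 0.0487). With quantile normalization 2 passed, Cd14 (1.401, 0.0456) and Csf1 (1.20, 0.0325). Itgam was then at 0.90, Lyz1 at 0.51, Lyz2 at 0.62, Cd163 at -0.57 and Il34 at 0.82. Itgam alone passed with each array centred (1.28, 0.0488) or values required in all 8 samples (1.26, 0.0461), and Mrc1 alone with the muscle covariate (2.60, 0.045). Leaving out 1 sample gave 0 to 1 call, with ranges of 1.07 to 1.48 for Cd14, 1.05 to 1.44 for Itgam and 0.84 to 1.22 for Csf1.

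Cd163 turned positive with the ID suffix (0.23), and leaving out 1 sample gave -0.49 to 0.25. Between pairs, Lyz1 minus Lyz2 turned with zeros kept (0.11) and with 1 Lyz2 probe (0.0019), and ranged from -0.131 to 0.0191 over left-out samples. Csf1 minus Il34 turned with quantile normalization (0.32), and Csf1 minus Csf1r ranged from -0.0564 to 0.619 over left-out samples. Chosen after seeing the data, a fit without 1-month sample 2 and 4-month sample 3, and without a block, let 1 gene pass, Csf1 (1.28, 0.0423), and gave 0.32 for Cd163. Reading shared values as not measured, also chosen afterwards, let none of the 9 pass. With zeros kept, Mrc1 was at 0.13, Cd163 at -1.16, Itgam at 0.83 and Csf1r at 0.48. The causes were not tested. Of 255 alternative values for the 9 genes and 3 pairs, 235 kept their direction and their side of the threshold.

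No paired analysis was possible because no ID number occurs at both ages, and the sample numbers only name samples within an age.

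Limits are the 4 samples per age, the lack of wild-type skin, the unstated numerator, and the low-signal values: 6 of 10 values of 1 Msr1 probe and 2 of 10 of the Itgam probe used were shared by many probes of their array. Cd163 and Mrc1 gave left-out values in only 5 of 8 fits.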
